A study of Mus musculus with 16 samples.

Results

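Spi1, the gene of the transcription factor PU.1, and 8 other members of its family, Ets1, Ets2, Fli1, Elf1, Elf4, Etv6, Gabpa and Elk3, were followed through a doxycycline course in AML246, an acute myeloid leukaemia line from the mouse that was kept in medium with interleukin-3. The 9 genes were taken by symbol, after Entrez numbers had been matched to a mouse gene table, and all 9 were among the 13652 genes counted. RNA sequencing covered 16 libraries in 8 groups of 2. Along the course these were untreated cells at day 0, cells at day 4, day 8 and day 12 of doxycycline at 0.1 µg/mL, and cells 4, 8 and 12 days after its withdrawal at day 12 (4, 8 and 12 days off, which are course days 16, 20 and 24). A further group held Cd11b-high cells sorted at day 12, and every other group was total viable cells. All groups came from the 1 line, so no library here is from cells outside it, and the labels give neither its genotype nor the construct on which doxycycline acts. The title of the series ties the schedule to restoration and then knockdown of PU.1. Whether replicates A and B came from separate cultures is not in the labels, so p-values measure a spread between libraries that may be technical.

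ETS factors share a DNA-binding domain that reads a GGAA core, and they differ in the bases they favour beside that core and in the proteins they bind. PU.1 favours GAGGAA and is the ETS factor on which macrophages, neutrophils and B cells depend, while Ets1, GABPA and the ternary complex factors favour CCGGAA. Most members activate transcription, whereas ETV6 is a repressor and ELK3 can be one. Because members can bind the same sites, the amount of each one beside PU.1 is part of how the family works in blood cells.

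Levels are CPM, read counts scaled to the library size after TMM adjustment, and RPKM, which is CPM per kilobase of counted gene length, wherever genes are compared with each other. A gene was called higher or lower where edgeR's quasi-likelihood test gave an adjusted p under 0.05. The libraries held 12962801 to 26509803 reads, and a member had 220 to 7027 reads in a library. Itgam, the gene of the sort marker Cd11b, had 493 and 624 CPM at day 4, against 1.41 and 1.77 CPM at day 0. One library stood furthest apart from its partner by gene length. In replicate A at 12 days off, the shortest quintile of genes had a median log2 level 0.52 above replicate B and the longest quintile one that was 0.48 below it, and all 8 ETS genes beside Spi1 were lower in A than in B. Calls of Spi1 and the listed factors at 12 days off against day 0, and of the listed factors against day 12, are given with and without it. No refit without it is given for the other ETS-family genes. All comparisons share 1 estimate of the spread, so that library also enters calls at other times. A smaller trend in the same direction separated the replicates at day 4 and at 4 days off. At day 4, replicate A minus B had a median log2 level of 0.17 in the shortest quintile and -0.11 in the longest. At 4 days off these medians were 0.15 and -0.12. The 8 ETS genes beside Spi1 were again lower in A than in B at both times. Genes that define other lineages also moved over the course, and their part in the results was not tested. The 8 neutrophil markers summed to 2230 to 2850 CPM at day 4, against 11.9 to 21.2 CPM at day 0, and to 361 to 382 CPM at 4 days off, against 609 to 630 CPM at day 12. The 6 eosinophil markers summed to 202 to 240 CPM at day 4, against 2080 to 5170 CPM at day 0, and to 1150 to 1300 CPM at 4 days off, against 7950 to 8890 CPM at day 12. At day 4 over day 0, 3 of these 6 were called lower and 1 higher, where 31.0% of all genes were called lower and 28.2% higher. The 6 of 8 basophil and mast cell markers in the files summed to 680 to 794 CPM at day 4, against 2440 to 3020 CPM at day 0. Of 9 T and NK cell markers 3 were in the files, at a sum of 5.08 to 36.6 CPM over all libraries, and of 6 B cell markers 2, at 1.3 to 4.2 CPM. Of 8 macrophage markers 3 were in the files, and 1 of the 3 was not called at day 4 over day 0. Their sum moved with Spi1, at 39.6 to 48.1 CPM at day 4, against 11 to 11.6 CPM at day 0. It was 8.84 to 9.88 CPM at 4 days off, against 61.1 to 61.2 CPM at day 12. The 3 of 6 erythroid markers summed to 257 to 504 CPM and the 1 of 5 endothelial markers had 539 to 1300 CPM.

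Spi1 (Entrez 20375; chromosome 2, 91082374 to 91115759, GRCm38) set the reference profile. It had 66.3 and 56.8 CPM in replicates A and B at day 0, 229 and 248 CPM at day 4, 186 and 208 CPM at day 8, and 226 and 219 CPM at day 12. After withdrawal it had 65.0 and 56.6 CPM at 4 days off, 48.1 and 44.8 CPM at 8 days off, and 54.8 and 37.2 CPM at 12 days off. The 8 libraries on doxycycline, with the sorted ones, all lay above the other 8. Spi1 had stepped up by day 4, to 3.87 times day 0 (log2 fold 1.95 ± 0.15 SE, adjusted p = 6.8e-08). By 4 days off it had stepped down to 0.274 times day 12 (log2 fold -1.87 ± 0.15 SE, adjusted p = 4.8e-07). Both of its libraries at 8 days off lay below those of 4 days off. In bulk RNA, fewer cells of a type and less RNA per cell cannot be told apart, and that holds for every level given here.

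These first steps on and off share no library, so they were used to read which ETS factors changed alongside Spi1. At day 4, Ets1, Ets2, Fli1, Elf4, Gabpa and Elk3 were called higher than at day 0, which is 6 of the 8, where 28.2% of all genes were called higher. None of the 8 was called lower, as 31.0% of all genes were. The step off called Ets2, Fli1, Elf1, Elf4, Gabpa and Elk3 lower at 4 days off than at day 12, again 6 of 8, where 18.8% of all genes were called lower, and none was called higher, as 18% of all genes were. The median log2 fold of the 8 was 0.82 at day 4, against -0.05 over all genes, and -0.44 at 4 days off, against 0.04 over all genes. Over all genes, 2459 were called higher and 2570 lower at 4 days off with TMM, and 3480 higher and 1906 lower with library size alone, which moved the median of all genes by 0.12 on the log2 scale and left 4 of the 8 called. Ets2, Fli1, Elf4, Gabpa and Elk3 thus changed in the direction of Spi1 at both steps, 5 of 8, while 15% of all genes were called higher and then lower. In levels, 6 of the 8 (all but Gabpa and Etv6) had every library on doxycycline above the 6 of day 0 and of 8 and 12 days off, as 18.7% of all genes did, and none had them all below, as 19% of all genes did. No listed factor changed against Spi1 at both steps, while 13.8% of all genes were called lower and then higher. Every listed factor differed somewhere among the 8 groups by edgeR's F test, as did 83.8% of all genes.

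**Figure D1:**
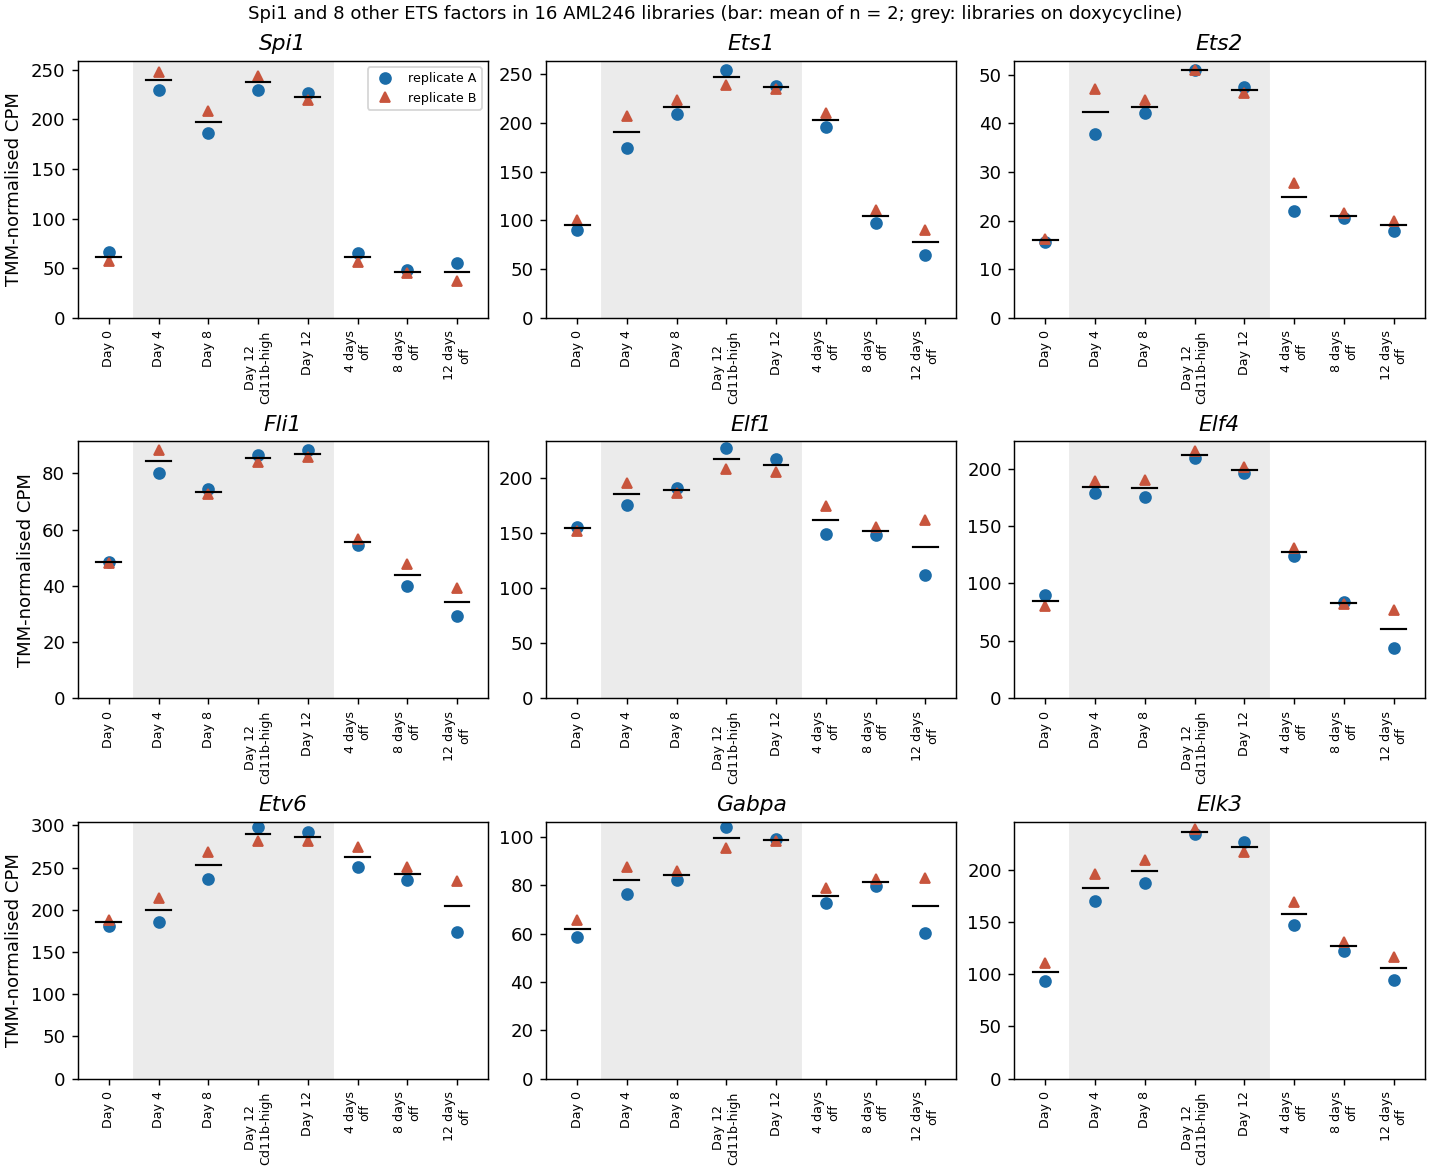
TMM-normalised CPM (y axis, from 0) of Spi1 and 8 other ETS factors in each library, over the 8 groups in course order with the Cd11b-high sort beside day 12 (x axis). Circles are replicate A, triangles replicate B, black bars the mean of 2 libraries, and the grey band marks libraries on doxycycline. Spi1 is at 56.6 to 65.0 CPM at 4 days off, when Ets1 is still at 196 to 210 CPM.

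Ets2 (Entrez 23872; chromosome 16, 95702407 to 95721049) encodes an activator that is phosphorylated downstream of the Ras and MAP kinase pathway. It had 15.5 and 16.2 CPM at day 0, 37.7 and 47.0 CPM at day 4, 42.0 and 44.7 CPM at day 8, and 47.4 and 46.2 CPM at day 12. Once doxycycline was withdrawn it had 21.9 and 27.8 CPM at 4 days off, 20.5 and 21.6 CPM at 8 days off, and 17.9 and 20 CPM at 12 days off. Its libraries on doxycycline lay above all others. Of the 8 factors beside Spi1 it had the largest fold at both first steps, 2.67 at day 4 over day 0 (log2 fold 1.42 ± 0.14 SE, adjusted p = 5.1e-07) and 0.530 at 4 days off over day 12 (log2 fold -0.92 ± 0.13 SE, adjusted p = 9.6e-05). Unlike Spi1, whose 4 days off libraries overlapped those of day 0, Ets2 was 1.56 times its day 0 level at 4 days off (adjusted p = 0.0022) and 1.32 times at 8 days off (adjusted p = 0.034).

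Ets1 (Entrez 23871; chromosome 9, 32636241 to 32757820), the founding member of the family and its close relative, followed a slower course down. It had 90.3 and 100 CPM at day 0, 174 and 207 CPM at day 4, 209 and 224 CPM at day 8, and 238 and 235 CPM at day 12. After withdrawal it had 196 and 210 CPM at 4 days off, 97.5 and 111 CPM at 8 days off, and 64.7 and 90.6 CPM at 12 days off. It was called higher with Spi1 on the way up, with a fold of 2.0 at day 4 over day 0 (log2 fold 1.0 ± 0.14 SE, adjusted p = 2.5e-05). It was not called at 4 days off against day 12 (log2 fold -0.22 ± 0.14 SE, adjusted p = 0.23), and it was still 2.14 times its day 0 level (log2 fold 1.09 ± 0.14 SE, adjusted p = 4.2e-05), where Spi1 was at 0.988 times (log2 fold -0.02 ± 0.15 SE, adjusted p = 0.94). By 8 days off the libraries of Ets1 reached down among those of day 0, with a fold of 1.10 (adjusted p = 0.50). The difference between the 2 genes in their folds was not tested. In a fit of the 4 libraries of day 12 and 4 days off alone, the fall of Ets1 was called (log2 fold -0.23, adjusted p = 0.037).

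Fli1 (Entrez 14247; chromosome 9, 32422204 to 32543432) is the ETS factor of megakaryocyte and endothelial genes and lies 92.8 kb from Ets1. It had 48.5 and 48.2 CPM at day 0, 80.3 and 88.4 CPM at day 4, 74.4 and 72.5 CPM at day 8, and 88.3 and 85.7 CPM at day 12. Off doxycycline again, it had 54.6 and 56.5 CPM at 4 days off, 40.0 and 47.9 CPM at 8 days off, and 29.1 and 39.3 CPM at 12 days off. Its profile dipped at day 8 as that of Spi1 did, with both day 8 libraries below those of day 4 and day 12. Fli1 was 1.74 times its day 0 level at day 4 (log2 fold 0.80 ± 0.13 SE, adjusted p = 7.5e-05) and 0.639 times its day 12 level at 4 days off (log2 fold -0.65 ± 0.13 SE, adjusted p = 0.0012). Fli1 at 4 days off, at 1.15 times day 0, was not called (adjusted p = 0.24), while its neighbour Ets1 was.

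Elf4 (Entrez 56501; chromosome X, 48411049 to 48463132) and Elf1 (Entrez 13709; chromosome 14, 79481174 to 79582491) are activators of the ELF branch, and Elf4 is known for its roles in the quiescence of blood stem cells and in lymphocytes. Elf4 had 89.8 and 80.3 CPM at day 0, 179 and 189 CPM at day 4, 175 and 190 CPM at day 8, and 196 and 201 CPM at day 12. After withdrawal it had 124 and 131 CPM at 4 days off, 83.4 and 82.4 CPM at 8 days off, and 43.7 and 76.5 CPM at 12 days off. Elf4 therefore stood at an intermediate level at 4 days off, above day 0 and below day 12, with folds of 1.5 over day 0 (adjusted p = 0.017) and 0.640 over day 12 (log2 fold -0.64 ± 0.17 SE, adjusted p = 0.0091). At day 4 it was 2.16 times day 0 (log2 fold 1.11 ± 0.17 SE, adjusted p = 6.5e-05).

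Elf1 changed less. It had 155 and 152 CPM at day 0, 175 and 195 CPM at day 4, 191 and 186 CPM at day 8, and 217 and 205 CPM at day 12. Following withdrawal it had 149 and 174 CPM at 4 days off, 148 and 155 CPM at 8 days off, and 112 and 162 CPM at 12 days off. The libraries on doxycycline lay above those of day 0 and of 8 and 12 days off, but Elf1 was not called at day 4 (log2 fold 0.27 ± 0.14 SE, adjusted p = 0.11). It was called at day 12 over day 0 (log2 fold 0.46 ± 0.14 SE, adjusted p = 0.010) and at 4 days off over day 12 (log2 fold -0.39 ± 0.14 SE, adjusted p = 0.043). With library size alone in place of TMM, those calls were lost, at adjusted p = 0.060 and 0.15. At day 4, a fit of the day 0 and day 4 libraries alone did call Elf1 higher (log2 fold 0.31, adjusted p = 0.035). That fit called 7 of the 8 factors beside Spi1 higher. Leaving out replicate A at 12 days off, which enters the shared estimate of the spread, kept the log2 fold of Elf1 at 0.27. Elf1 then also passed the threshold at day 4.

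Gabpa (Entrez 14390; chromosome 16, 84834891 to 84863783) encodes the DNA-binding subunit of GABP, which drives housekeeping and mitochondrial genes. It had 58.5 and 65.6 CPM at day 0, 76.5 and 87.5 CPM at day 4, 82.4 and 86.0 CPM at day 8, and 99.2 and 98.3 CPM at day 12. With doxycycline withdrawn, it had 72.7 and 78.7 CPM at 4 days off, 79.7 and 82.6 CPM at 8 days off, and 60.3 and 82.9 CPM at 12 days off. Its range was narrow, and its libraries on doxycycline overlapped those off it. Gabpa was 1.32 times day 0 at day 4 (log2 fold 0.40 ± 0.13 SE, adjusted p = 0.016) and 0.766 times day 12 at 4 days off (log2 fold -0.38 ± 0.13 SE, adjusted p = 0.032). These are the weakest of the 5 paired calls: the first was lost with a correction for gene length (log2 fold 0.17, adjusted p = 0.072) and the second with library size alone (log2 fold -0.27, adjusted p = 0.13).

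Elk3 (Entrez 13713; chromosome 10, 93247415 to 93311159) is a ternary complex factor, a partner of SRF that represses until MAP kinase signalling turns it into an activator. It had 93.3 and 111 CPM at day 0, 170 and 196 CPM at day 4, 188 and 210 CPM at day 8, and 227 and 217 CPM at day 12. After withdrawal it had 147 and 169 CPM at 4 days off, 122 and 131 CPM at 8 days off, and 94.3 and 117 CPM at 12 days off. The fall was spread over the whole time off. Elk3 was 1.80 times day 0 at day 4 (log2 fold 0.85 ± 0.13 SE, adjusted p = 5.0e-05), 0.711 times day 12 at 4 days off (log2 fold -0.49 ± 0.13 SE, adjusted p = 0.0076), and then still 1.55 times day 0 (adjusted p = 0.0015).

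Etv6 (Entrez 14011; chromosome 6, 134035700 to 134270158), encodes a repressor needed by blood stem cells. It had 181 and 188 CPM at day 0, 186 and 214 CPM at day 4, 237 and 268 CPM at day 8, and 292 and 281 CPM at day 12. Once off doxycycline it had 251 and 275 CPM at 4 days off, 235 and 251 CPM at 8 days off, and 174 and 234 CPM at 12 days off. Its day 4 libraries overlapped those of day 0, and its day 8 libraries lay above both. Etv6 was called at neither first step, with a log2 fold of 0.12 ± 0.13 SE at day 4 over day 0 (adjusted p = 0.46) and of -0.12 ± 0.13 SE at 4 days off over day 12 (adjusted p = 0.47). It was 1.55 times day 0 at day 12 (log2 fold 0.63 ± 0.13 SE, adjusted p = 0.00060), 1.42 times at 4 days off (adjusted p = 0.0069) and 1.32 times at 8 days off (adjusted p = 0.030). With the length correction its day 4 fold was below 0 (log2 fold -0.14, adjusted p = 0.11).

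**Figure D2:**
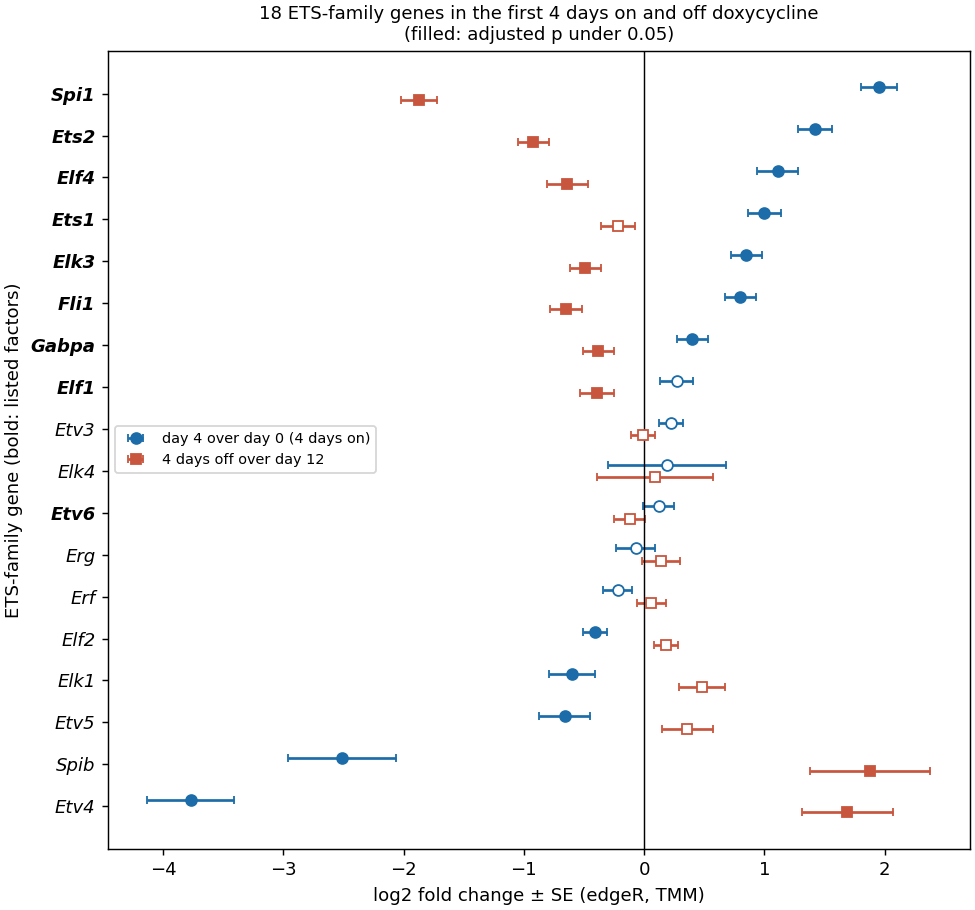
Log2 fold change with its standard error (x axis) of the 18 ETS-family genes in the files (y axis, ordered by the day 4 fold, the 9 listed factors in bold) for day 4 over day 0 (circles) and for 4 days off over day 12 (squares). Filled symbols have an adjusted p under 0.05. Ets2, Elf4, Elk3, Fli1 and Gabpa have filled symbols right of 0 at day 4 and left of 0 at 4 days off, and Etv4 and Spib have the reverse.

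Leaving out 1 library at a time changed several of the paired calls. Ets2 and Fli1 kept both calls under every alternative tried, library omissions included. Gabpa lost its day 4 call without day 0 replicate A (adjusted p = 0.13) or day 4 replicate B (0.078), and its call at 4 days off without any 1 of the 4 libraries compared (adjusted p of 0.057 to 0.20). For 4 days off over day 12, Elf4 lost its call without 4 days off replicate A (log2 fold -0.60, adjusted p = 0.077), and stood at the threshold without day 12 replicate B (log2 fold -0.63, adjusted p = 0.050). Elk3 lost its call there without 4 days off replicate A (log2 fold -0.40, adjusted p = 0.099) or day 12 replicate A (log2 fold -0.46, adjusted p = 0.059). Elf1 lost its call there without day 12 replicate A (adjusted p = 0.19), day 12 replicate B (0.099) or 4 days off replicate A (0.29). The 6 of 8 called at 4 days off thus became 2 without 4 days off replicate A and 3 without either day 12 library.

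Of the 5 factors that changed in the direction of Spi1 at both steps, Ets2, Elf4 and Elk3 are shown with the 250 bases before the gene start, because GGAA is the core that PU.1 and these factors themselves read. The RefSeq promoter table matched 6 of the 9 members, Ets2, Elf1, Elf4, Etv6, Gabpa and Elk3, and its window for Gabpa is not shown because most of it lies inside the gene's span as given above. Each sequence is written 5′ to 3′ on the strand of its gene, from GRCm38.p6, with GGAA and its reverse complement TTCC in capitals. The windows are chr16:95702157-95702406 on the plus strand for Ets2, chrX:48463133-48463382 on the minus strand for Elf4, and chr10:93311160-93311409 on the minus strand for Elk3.
Ets2: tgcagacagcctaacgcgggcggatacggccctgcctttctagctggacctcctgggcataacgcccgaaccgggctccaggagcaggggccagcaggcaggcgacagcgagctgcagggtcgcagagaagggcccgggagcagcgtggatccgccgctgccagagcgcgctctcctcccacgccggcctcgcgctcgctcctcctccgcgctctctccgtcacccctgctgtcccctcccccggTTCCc
Elf4: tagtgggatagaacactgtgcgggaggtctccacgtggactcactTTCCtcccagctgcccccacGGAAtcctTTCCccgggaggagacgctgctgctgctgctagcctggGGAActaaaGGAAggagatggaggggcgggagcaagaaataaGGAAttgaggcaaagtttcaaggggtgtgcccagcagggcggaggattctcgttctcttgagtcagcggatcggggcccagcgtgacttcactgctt
Elk3: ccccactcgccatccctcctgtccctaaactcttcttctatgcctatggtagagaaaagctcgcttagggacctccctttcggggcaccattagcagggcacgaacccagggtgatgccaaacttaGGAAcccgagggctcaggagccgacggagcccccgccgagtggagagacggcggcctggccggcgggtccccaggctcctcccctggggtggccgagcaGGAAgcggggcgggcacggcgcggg

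A GGAA core on either strand occurred 1 time in the Ets2 window, 6 times in Elf4 and 2 times in Elk3, against a median of 3 in all 27025 windows of this length, of which 93.4% held at least 1. The longer word GAGGAA, read on both strands and containing the core, occurred 1 time in the Elf4 window, in 23.1% of all windows and in 22.5% of those of the genes in the files. CCGGAA, which also contains the core, occurred in none of the 3, in 12.3% of all windows and in 22.7% of those of the genes in the files. Ets2, which had the largest folds, held the fewest cores of the 3. A match is a description of these letters and not a measured binding site.

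At day 12, all 8 factors beside Spi1 were called higher than at day 0, where 30.0% of all genes were called higher and 33.4% lower. The folds ran from 1.38 for Elf1 to 2.95 for Ets2 (log2 fold 1.56 ± 0.14 SE, adjusted p = 1.8e-07), and Spi1 stood at 3.61 times day 0. The call of Elf1 was lost without day 0 replicate B (adjusted p = 0.054) or day 12 replicate A (0.062). This comparison and that of day 4 share the day 0 libraries. Ets1 and Elk3 were at 2.49 and 2.18 times day 0 at day 12, against 2.0 and 1.80 times at day 4. On a scale per length at day 12, Spi1 had 167 ± 3.54 RPKM, followed by Elk3 with 52.5 ± 1.62, Etv6 with 51.7 ± 1.45, Elf1 with 50.1 ± 1.99 and Ets1 with 46.8 ± 0.496 RPKM. Elf4 had 34.0 ± 0.587, Fli1 28.2 ± 0.592, Gabpa 19.8 ± 0.133 and Ets2 13.2 ± 0.234 RPKM (SD, n = 2 each). Elk3, Etv6 and Elf1 did not differ beyond their spread. At day 0, Spi1 had 46.2 ± 5.02 RPKM, the highest of the 9 listed genes, and Elf1 with 36.4 ± 0.488 and Etv6 with 33.3 ± 0.992 RPKM came next among them, while Ets2 was again lowest of the 9 with 4.47 ± 0.135 RPKM. Elf2, an ETS-family gene outside the 9, had 49.9 ± 2.15 RPKM at day 0, and its libraries overlapped those of Spi1.

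Sorting for Cd11b at day 12 made no difference that this design could call in these genes. Itgam had 884 and 940 CPM in Cd11b-high cells, against 719 and 670 CPM in total cells. Spi1 had 229 and 244 CPM in Cd11b-high cells, against 226 and 219 CPM in total cells. None of the 8 factors beside Spi1 was called, and their log2 folds ran from -0.03 for Fli1 to 0.12 for Ets2. Over all genes edgeR called 0.0146% in either direction, which is 2 genes, both lower, while 309 had an unadjusted p under 0.05, and DESeq2 called 15 and limma-voom 1. A fit of these 4 libraries alone called 313 genes and none of the 8 factors.

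At 4 days off the libraries of Spi1 overlapped those of day 0, and the other factors were set against day 0 as well, with no test of a difference between factors. In that comparison Ets1, Ets2, Elf4, Etv6 and Elk3 were called higher at 4 days off, 5 of 8, where 18.8% of all genes were called higher and 19.1% lower. Fli1, Elf1 and Gabpa were not called, with log2 folds of 0.20, 0.07 and 0.29. Elf4 lost its call there without day 0 replicate B (adjusted p = 0.12) or 4 days off replicate B (0.090), and Etv6 without day 0 replicate A (0.053) or 4 days off replicate B (0.063). At 8 days off, Ets2, Etv6 and Gabpa were called higher than at day 0, where 16.2% of all genes were called higher and 16.9% lower, and Spi1 at 0.754 times day 0 missed the threshold (log2 fold -0.41, adjusted p = 0.051). Spi1 was called lower there with a replicate block (adjusted p = 0.041), with library size alone (0.045), with the length correction (0.020) and in the 4 libraries alone (0.0033). Elk3 at 1.24 times day 0 (adjusted p = 0.073) was called higher there with the block (0.029), with DESeq2 (0.038), with the length correction (0.037) and in the 4 libraries alone (0.0095). The calls of Ets2, Etv6 and Gabpa were lost without any 1 of the 4 libraries compared. Both comparisons were added after the levels had been seen, and they share the day 0 libraries.

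At 12 days off, all 8 factors were called lower than at day 12, where 32.4% of all genes were called lower and 32.9% higher. Elf4 fell to 0.303 times (log2 fold -1.72 ± 0.18 SE, adjusted p = 8.8e-07), Ets1 to 0.328 times (log2 fold -1.61 ± 0.14 SE, adjusted p = 2.1e-07) and Fli1 to 0.393 times its day 12 level (log2 fold -1.35 ± 0.13 SE, adjusted p = 4.3e-07). Without replicate A at 12 days off, all 8 were still called, with log2 folds of -1.38 for Elf4, -1.39 for Ets1 and -1.15 for Fli1. With the length correction, Etv6 (log2 fold -0.08, adjusted p = 0.35) and Gabpa (log2 fold -0.11, adjusted p = 0.25) were no longer called.

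Against day 0, the same libraries put Spi1 and some factors below their starting level. Spi1 had 54.8 and 37.2 CPM at 12 days off, against 66.3 and 56.8 CPM at day 0, a fold of 0.746 (log2 fold -0.42 ± 0.15 SE, adjusted p = 0.035). Fli1 had 29.1 and 39.3 CPM at 12 days off, against 48.5 and 48.2 CPM at day 0, a fold of 0.707 (log2 fold -0.50 ± 0.13 SE, adjusted p = 0.0061). Elf4 had 43.7 and 76.5 CPM, against 89.8 and 80.3 CPM, also a fold of 0.707 (log2 fold -0.50 ± 0.18 SE, adjusted p = 0.031). Fli1 and Elf4 were the 2 of 8 called, where 22.0% of all genes were called lower and 21.6% higher. Without replicate A at 12 days off, Spi1 was lower (log2 fold -0.73, adjusted p = 0.00019), Fli1 was still called (log2 fold -0.30, adjusted p = 0.037), Elf4 was not (log2 fold -0.15, adjusted p = 0.23), and Etv6 (log2 fold 0.34, adjusted p = 0.018) and Gabpa (log2 fold 0.42, adjusted p = 0.0042) were called higher. Replicate A at 12 days off was the library in which long genes read lowest and short ones highest against its partner. Spi1 is in the shortest quintile of genes by counted length. With DESeq2 in place of edgeR, Spi1 missed the threshold (log2 fold -0.37, adjusted p = 0.054). Spi1 also lost its call without 12 days off replicate B (log2 fold -0.09, adjusted p = 0.54) or day 0 replicate A (log2 fold -0.31, adjusted p = 0.23), and Elf4 without day 0 replicate A (adjusted p = 0.17) or B (0.057). In a fit of these 4 libraries alone, none of Spi1, Fli1 and Elf4 was called.

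Of the 27 ETS-family genes listed, 18 were in the files, and the 9 outside the members were Spib, Erg, Elf2, Elk1, Elk4, Etv3, Etv4, Etv5 and Erf. At day 4, Etv4, Etv5, Spib, Elf2 and Elk1 were called lower than at day 0, which is 5 of 9, where 31.0% of all genes were called lower, and none was called higher, as 28.2% of all genes were. Spib and Etv4 were called higher at 4 days off than at day 12, where 18% of all genes were called higher, and none of the 9 lower, as 18.8% of all genes were. Etv4, an activator of the PEA3 branch, changed against Spi1 at both steps. It had 0.422 and 0.484 CPM at day 4, against 7.28 and 5.09 CPM at day 0 (log2 fold -3.77 ± 0.36 SE, adjusted p = 5.5e-07). It had 2.50 and 1.89 CPM at 4 days off, against 0.593 and 0.759 CPM at day 12 (log2 fold 1.69 ± 0.38 SE, adjusted p = 0.0033), and 2.75 and 2.51 CPM at 12 days off. Spib, the closest relative of Spi1 and a factor of B cells and plasmacytoid dendritic cells, also changed against Spi1, on few reads. It had 6 and 8 reads at day 4, against 29 and 22 reads at day 0, which is 0.230 and 0.323 CPM against 1.58 and 1.62 CPM (log2 fold -2.51 ± 0.45 SE, adjusted p = 0.00021). It had 20 and 13 reads at 4 days off, against 6 and 6 reads at day 12 (log2 fold 1.88 ± 0.50 SE, adjusted p = 0.0084), and 8 and 6 reads at 12 days off.

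The other 7 were nearer to their day 0 level. Elf2, an activator of the ELF branch, had 101 and 101 CPM at day 4, against 138 and 129 CPM at day 0 (log2 fold -0.41 ± 0.10 SE, adjusted p = 0.0019), and 82.3 and 96.0 CPM at 12 days off. Erf, a repressor that MAP kinase signalling sends out of the nucleus, had 11.3 and 11.4 CPM at day 12, against 16.2 and 15.9 CPM at day 0 (log2 fold -0.50 ± 0.12 SE, adjusted p = 0.0023). At 12 days off it had 21.3 and 19.4 CPM, above both day 0 libraries. Elk1 and Etv5, an activating ternary complex factor and a relative of Etv4, were lower at day 4 (log2 folds of -0.60 and -0.66, adjusted p = 0.014 each). Etv3, a repressor, was called at neither first step and was higher at day 12 over day 0 (log2 fold 0.52 ± 0.10 SE, adjusted p = 0.00037). Erg, which lies 116 kb from Ets2 and is close to Fli1 in sequence, was called in none of the 8 comparisons, with log2 folds of -0.24 to 0.42. Elk4 had 6.78 and 37.1 CPM in replicates A and B at 12 days off and a standard error of at least 0.48 on its log2 fold in every comparison.

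Spi1 also changed its weight within the family. On a scale per length, it made up 35.5% and 34.9% of the summed RPKM of the 18 ETS-family genes at day 4, against 16.3% and 14.1% at day 0. The share was 29.1% and 30.1% at day 8 and 30.4% and 30.1% at day 12, then 13.6% and 11.2% at 4 days off, 12.0% and 10.7% at 8 days off, and 17.5% and 9.56% at 12 days off. The 17 genes other than Spi1 summed to 312 and 348 RPKM at day 4 and 388 and 381 RPKM at day 12, against 256 and 259 RPKM at day 0. Their sum was still 310 and 337 RPKM at 4 days off, and the share of Spi1 was below both day 0 libraries. Folds at 4 days off over day 0 followed gene length, with a median log2 fold of -0.20 in the shortest quintile and 0.14 in the longest. Spi1 is in the shortest quintile, and with the length correction it was at 1.07 times day 0 (adjusted p = 0.49). No length-corrected share was computed. Computed on CPM, without length, the share of Spi1 was 14.5% at day 4 and 4.26% at 4 days off, against 5.59% at day 0.

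**Figure D3:**
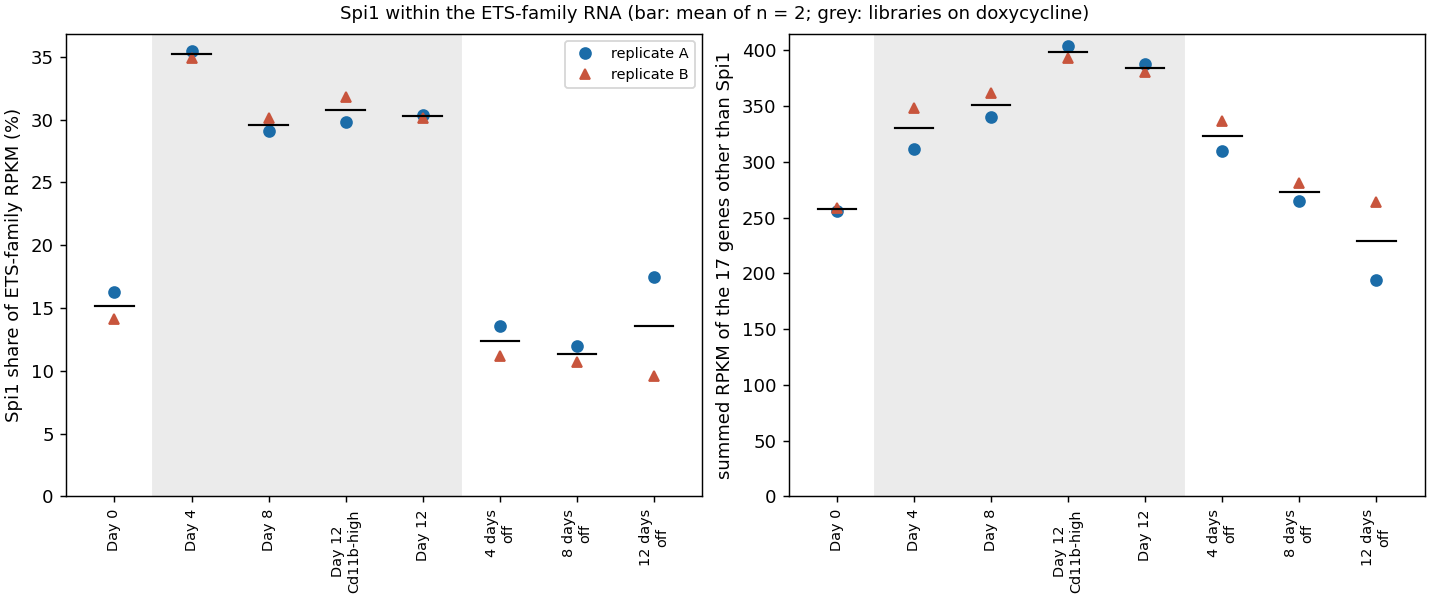
Share of Spi1 in the summed RPKM of 18 ETS-family genes (left, percent) and summed RPKM of the 17 others (right), per library over the 8 groups. Circles are replicate A, triangles replicate B, bars the mean of 2 libraries, and grey marks libraries on doxycycline. The share is highest at day 4 (34.9% to 35.5%), and at 4 days off it is 11.2% to 13.6% while the sum of the others is still 310 to 337 RPKM.

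Fold changes moved with gene length across the whole data set, which bears on these genes because 7 of the 8 factors beside Spi1 are in the 2 longest quintiles of genes, Fli1 is in the middle quintile and Spi1 is in the shortest. At day 4 over day 0, the median log2 fold was -0.43 in the shortest quintile and 0.24 in the longest. At 4 days off over day 12 it was 0.32 in the shortest and -0.14 in the longest. The direction in which long genes moved was that of the 8 factors, and the opposite of the direction of Spi1's own quintile. After a correction that removed each library's trend on length, the folds of the factors shrank and that of Spi1 grew. Ets2, Fli1, Elf4 and Elk3 were still called higher and then lower, with day 4 log2 folds of 1.29, 0.73, 0.84 and 0.66, and Spi1 stood at 2.20. Gabpa lost its day 4 call, so 4 of 8 remained. Ets1 was at 0.77 (adjusted p = 1.1e-06) at day 4. Among the other 9 genes, Spib, Elf2, Elk1, Etv4 and Etv5 were then called lower at day 4 and higher at 4 days off. The correction, chosen after the trend had been seen, would also remove a true change that is shared by long genes, and what makes folds follow length was not tested.

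**Figure D4:**
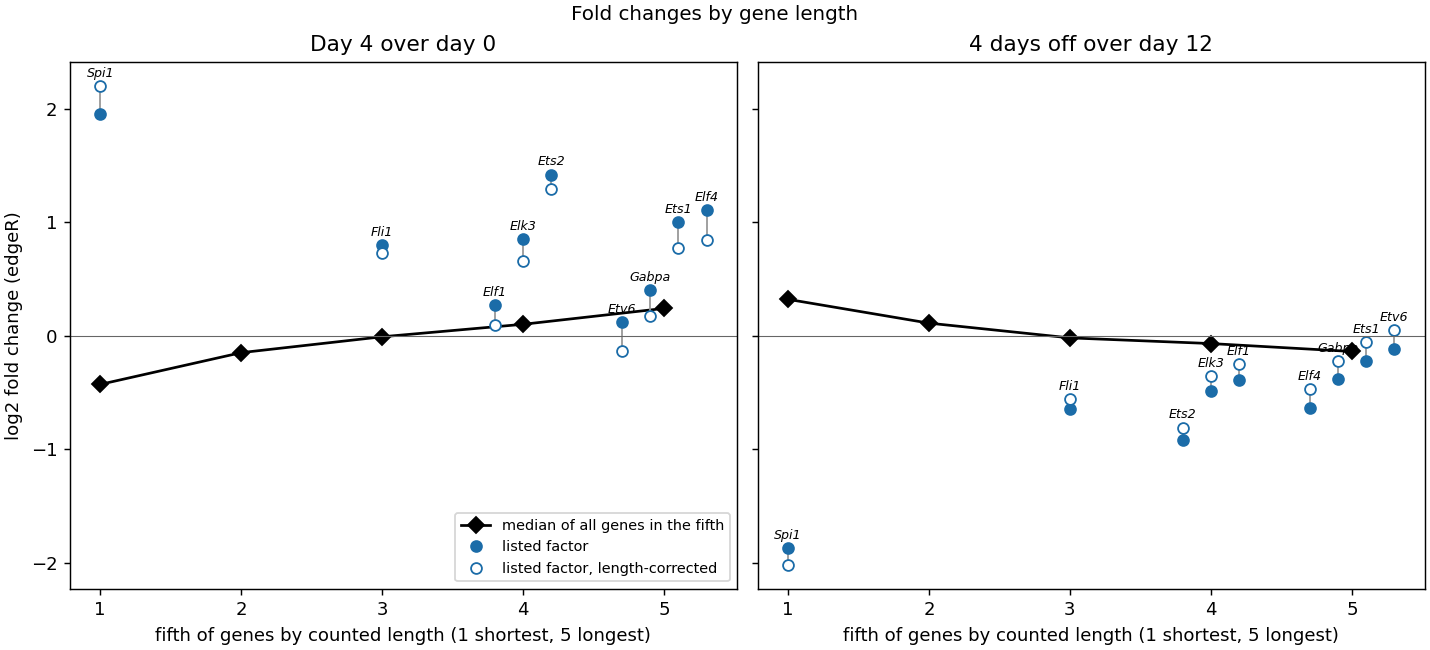
Log2 fold change (y axis) by quintile of genes by counted length (x axis) for day 4 over day 0 (left) and 4 days off over day 12 (right). Black diamonds are medians of all genes in a quintile, filled circles the listed factors, and open circles the same factors after the length correction. Medians run from -0.43 to 0.24 on the left and from 0.32 to -0.14 on the right.

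Partners and targets of ETS factors were read from lists written from textbook knowledge. Of 30 partners and regulators 28 were in the files, and at day 4 over day 0, 12 were called higher and 7 lower, with a median log2 fold of 0.01, where 28.2% of all genes were called higher and 31.0% lower. With the length correction the balance turned, to 7 higher and 8 lower. Of the same 28, 1 was called higher and 9 lower at 4 days off over day 12, and 2 higher and 12 lower with the length correction. There, without the correction, 18% of all genes were called higher and 18.8% lower. The MAP kinase phosphatase Dusp6 had 25.9 ± 0.942 CPM at day 4, against 124 ± 5.76 CPM at day 0 (log2 fold -2.26 ± 0.17 SE, adjusted p = 5.4e-08). The AP-1 subunit Junb had 40.8 ± 0.731 CPM at day 4, against 189 ± 14.2 CPM at day 0 (log2 fold -2.22 ± 0.21 SE, adjusted p = 4.7e-07). Gata1, whose protein binds PU.1 and opposes it, had 6.58 ± 0.617 CPM at day 4, against 44.3 ± 21.5 CPM at day 0 (log2 fold -2.76 ± 0.26 SE, adjusted p = 5.6e-07). The nuclear body gene Sp100, whose protein binds ETS1, had 111 ± 3.07 CPM at day 4, against 57.2 ± 2.39 CPM at day 0 (log2 fold 0.96 ± 0.09 SE, adjusted p = 6.2e-07). Of these 4, Sp100 rose with Spi1 at day 4 and fell at 4 days off (log2 fold -0.71 ± 0.09 SE, adjusted p = 4.5e-05), while Junb and Gata1 were lower at both steps.

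The target lists are given beside their factors by counts and medians. The median of all genes was -0.05 at day 4 over day 0, -0.07 at day 12 over day 0 and 0.04 at 4 days off over day 12. Of all genes, 28.2% were called higher and 31.0% lower at day 4 over day 0. At day 12 over day 0 these shares were 30.0% and 33.4%, and at 4 days off over day 12 they were 18% and 18.8%. The shares are without the length correction, and whether a list differed from them was not tested. Gabpa was higher at day 4, but of 10 GABP and mitochondrial targets none was called higher there and 7 were lower, with a median log2 fold of -0.41. Tfb1m, a mitochondrial transcription factor, had 12.0 ± 0.0845 CPM at day 4, against 21.6 ± 4.88 CPM at day 0 (log2 fold -0.83 ± 0.15 SE, adjusted p = 0.00027). Tfam, the packaging factor of mitochondrial DNA, had 100 ± 6.83 CPM at day 4, against 157 ± 19.3 CPM at day 0 (log2 fold -0.64 ± 0.12 SE, adjusted p = 0.00036). At 4 days off, when Gabpa was lower, 3 of the 10 were called higher and none lower, with a median of 0.24. After the length correction, 1 of the 10 was called higher and 4 lower at day 4, and 3 higher and 2 lower at 4 days off. Of 8 Fli1 and megakaryocyte targets 5 were in the files, and 3 were higher and 1 lower at day 4, with a median log2 fold of 0.95. At day 12 over day 0, 4 of the 5 were higher and none lower, with a median of 1.59, and at 4 days off over day 12, 1 was higher and 2 lower, with a median of -0.39. Of the 5, 1 was higher and 3 lower at 4 days off over day 12 with the length correction. Among them Itgb3, the integrin β3 chain, had 114 ± 17.4 CPM at day 4, against 36.8 ± 2.70 CPM at day 0 (log2 fold 1.63 ± 0.22 SE, adjusted p = 1.8e-05), and fell at 4 days off (log2 fold -1.80 ± 0.22 SE, adjusted p = 2.4e-05). Gp9, a platelet glycoprotein, had 147 reads over both day 4 libraries, against 1 read over both day 0 libraries, a ratio of 92.7 per read sequenced (exact 95% interval 16.4 to 3690, counting error only). Of 7 megakaryocyte and platelet markers 4 were in the files, without Pf4, Gp6 and Vwf, at a sum of 166 to 266 CPM at day 0, 140 to 144 CPM at day 4, 482 to 488 CPM at day 8 and 631 to 658 CPM at day 12. Single markers did not all follow that sum. At day 4 over day 0, 2 of the 4 were called higher and 1 lower, with a median log2 fold of 0.35. The 4 markers summed to 401 to 428 CPM at 4 days off, 134 to 146 CPM at 8 days off and 111 to 113 CPM at 12 days off, and their part in the values of this list was not tested. Of 10 ternary complex factor and Srf targets, 3 were higher and 6 lower at day 4, when Elk3 was higher, with a median log2 fold of -1.45. At day 12 over day 0, 4 were higher and 2 lower, with a median of 0.33, and at 4 days off over day 12, when Elk3 was lower, none was higher and 8 were lower, with a median of -0.86. After the length correction, 5 were lower at 4 days off over day 12, and at day 4 the counts were again 3 higher and 6 lower. Junb, given above, stands in this list too, and the other named target, the zinc finger gene Egr1, had 3.25 ± 0.722 CPM at day 4, against 28.7 ± 9.13 CPM at day 0 (log2 fold -3.14 ± 0.34 SE, adjusted p = 4.1e-06). Of 8 Ets1 or Ets2 targets 5 were in the files, with 3 higher and 2 lower at day 4 and a median log2 fold of 0.92, and none higher and 1 lower at 4 days off over day 12, with a median of -0.08. Myc had 93.5 ± 2.11 CPM at day 4, against 339 ± 6.74 CPM at day 0 (log2 fold -1.86 ± 0.10 SE, adjusted p = 1.0e-09). Plau, the urokinase gene, had 13.5 ± 0.857 CPM at day 4, against 4.92 ± 0.495 CPM at day 0 (log2 fold 1.45 ± 0.16 SE, adjusted p = 2.2e-06). Values after ± are SDs of 2 libraries for CPM.

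The likeness of a gene to Spi1 was measured as the root mean square difference between log2 CPM profiles over the 8 group means, each centred on its own mean, among the 9406 genes that averaged 10 CPM or more. The 5 genes nearest to Spi1 were Ahrr (0.169), C1rl (0.227), Pstpip2 (0.238), Sla (0.243) and Rp2 (0.243). Ahrr, the repressor of the aryl hydrocarbon receptor, had mean CPM of 9.92 at day 0, 42.5 at day 4, 37.0 at day 12 and 13.3 at 4 days off. Pstpip2, an adaptor of the actin cytoskeleton in myeloid cells, had means of 23.2, 110, 134 and 33.5 CPM at those times. None of the ETS factors came as near as those 5, with Elf4 at rank 235 (0.490) and Ets2 at rank 261 (0.50), then Fli1 at 582, Ets1 at 687, Elk3 at 901, Elf1 at 2121, Gabpa at 2751 and Etv6 at 3649. The measure takes in the size of a change as well as its timing.

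The counts of 4 factors may hold reads of a gene on the other strand, since the sources used here do not state whether strand was used in counting. Exons of Elk3 share 316 bases with Cdk17, those of Elf1 share 327 with Wbp4, those of Gabpa share 397 with Atp5j and those of Etv6 share 135 with Gm17089. Cdk17 was not called at day 4 over day 0 (log2 fold -0.08 ± 0.11 SE) or at 4 days off over day 12 (0.09 ± 0.11 SE), where Elk3 was. Atp5j was not called at either step (log2 folds of -0.15 and 0.23), where Gabpa was. Wbp4, like Elf1, was higher in sign at day 4 (log2 fold 0.32 ± 0.11 SE, adjusted p = 0.025) and lower in sign at 4 days off (-0.20 ± 0.11 SE, adjusted p = 0.19). Gm17089 was not among the genes counted. Folds of whole genes do not measure the reads in the shared bases, so the part of those reads in the 4 factors was not tested.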

How the data were processed

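Total RNA of FACS-sorted AML246 cells was sequenced on an Illumina NextSeq500, per the labels' protocols. The deposited files give raw read counts per Entrez gene and a gene length, per the file headers. The tools named in the submitters' processing notes are featureCounts, edgeR and limma, with the build mm10; no source used here names the aligner. All genes exceed 0.5 CPM in 3 or more libraries, so genes below that are not in the files. Symbols came from a GRCm38 table, which named 13216 of 13652 genes.

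Counts were scaled with TMM and fitted with edgeR 4.0.16 (limma 3.58.1, R 4.3.3), robust quasi-likelihood, all 16 libraries, 1 mean per group, 8 residual degrees of freedom, common biological coefficient of variation 10.9%. The filter on low counts (filterByExpr) removed 0 genes. Tests were two-sided, with Benjamini-Hochberg adjustment over all genes of a comparison and calls at adjusted p under 0.05. A standard error is the log2 fold over the square root of F. Each pair of replicates differed beyond the sampling noise of read counts, which does not show that A and B came from separate cultures. Both were counted as libraries of their group.

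Members, lists and comparisons were chosen with earlier results of these data known. All members and every ETS-family gene in the files are named; from each other list up to 4 (partners) or 2 (targets) genes with the lowest day 4 adjusted p, and the 5 genes most like Spi1. Each result was repeated with DESeq2 1.42.0, with limma-voom, with RLE factors, without TMM (library size alone), with no filter, in the 4 libraries compared alone, with a replicate block, and without each library in turn. Added after seeing the data were 2 comparisons (4 and 8 days off over day 0), leaving out replicate A at 12 days off throughout, and a length correction (lowess of log2 CPM on log2 length, span 0.5, genes of at least 10 CPM, added to the offsets).

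On simulated counts of 13652 genes, day 4 against day 0 called 46.3% of the 1.5-fold changes, 94% of the 2-fold and 100% of the 4-fold, with 4 false calls. A simulated length trend in day 12 against day 0 gave 2240 calls uncorrected and 0 corrected.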

Additional observations from a re-analysis of the deposited data

How the results depend on the processing

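Of 72 log2 folds of the 9 genes in 8 comparisons, 43 were called, and none of these changed direction in the 547 alternatives run, of which 51 lost the call. Whether the letters A and B pair the libraries was not settled. Deviations of A from B correlated at -0.09 to 0.26 between groups, above 0.1 in 8 of 28 pairs of groups. A replicate block gave Spi1 and Elk3 calls at 8 days off over day 0. With it, 6 of the 8 factors were called at day 4 over day 0 and 6 at 4 days off over day 12. The genes called at those steps were 8283 and 5379, against 8082 and 5029 without the block. With library size alone, the median of all genes moved by -0.13 at day 12 over day 0 and by 0.10 at 12 days off over day 12. For Cd11b-high over total cells, the genes called were 313 in the 4 libraries alone, 15 with DESeq2, 1 with limma-voom, 1 with library size alone, and 1 to 8 when 1 library was left out, the 8 without 12 days off replicate A. At 4 days off over day 12, leaving out a library gave 2522 to 6884 genes and 2 to 6 factors, against 5029 and 6, with the fewest genes without 4 days off replicate A (2522), day 12 replicate A (2818) or B (3148). At 12 days off over day 12, the 4 libraries alone called 5 of the 8. At 12 days off over day 0, against 5950 genes and 2 factors, they called 2160 genes and 0 factors, the length correction called 5 factors, and leaving out a library gave 1 to 4. At 4 days off over day 0, leaving out a library gave 3031 to 6886 genes and 3 to 6 factors, with the fewest without 4 days off replicate B. At 8 days off over day 0 it gave 2533 to 6446 genes and 0 to 4 factors, with the fewest genes without 8 days off replicate B (2533), day 0 replicate A (2709) or 8 days off replicate A (2891). Folds that were not called and changed sign are these. Etv6 was at -0.14 at day 4 over day 0 and 0.05 at 4 days off over day 12 with the length correction. For Cd11b-high over total cells, Etv6 was at -0.02 with the length correction, -0.0 with library size alone and -0.02 to 0.06 without a library. Gabpa was at -0.02, -0.01 and -0.05 to 0.07 under the same 3 settings, and Elf1 at -0.02 to 0.10 without a library. At 12 days off over day 0, leaving out a library gave -0.38 to 0.07 for Elf1, -0.0 to 0.34 for Etv6 and -0.06 to 0.20 for Elk3. At 4 days off over day 0, Spi1 was at 0.01 in the 4 libraries alone, with DESeq2 and with RLE factors, at 0.10 with the length correction and at -0.12 to 0.10 without a library, and Elf1 at -0.03 with the length correction and -0.04 to 0.18 without a library. At 8 days off over day 0, Elf1 was at 0.01 with DESeq2 and with RLE factors and -0.05 to 0.01 without a library, and Elf4 at -0.12 to 0.05 without a library. The share of Spi1 on CPM without length was 5.59% at day 0, 14.5% at day 4, 11.5% at day 8, 11.8% at day 12, 12.1% in Cd11b-high cells, and 4.26%, 3.93% and 4.84% at 4, 8 and 12 days off. Of the 5 genes most like Spi1, 3 were kept when single libraries replaced group means. The cause of these changes was not tested. With 2 libraries a group, the simulated data recovered 46.3% of 1.5-fold changes at day 4 over day 0. The simulation changed few genes and gave all genes the same biological coefficient of variation, while 8082 genes were called in the data. Its recovery therefore does not set the limit of this design. For folds of the size of Gabpa and Elf1, a miss does not show that a gene did not change.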
